A study of Danio rerio with 4 samples.

Results

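Semaphorins, plexins and neuropilins are the ligands and receptors of one guidance system. By gene name in the zebrafish spelling, 43 of the 31716 rows in the expression table were taken as its members. Another 15 rows of these families, under other names, are described at the end. Members were the rows whose gene name begins with sema and a class number, with plxna, plxnb, plxnc or plxnd, or with nrp1 or nrp2. They comprise 28 semaphorins and 15 receptors, the latter being 4 neuropilins and 11 plexins. The membership rule used names and no measured value, but it was chosen with earlier results of these data known.

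Zebrafish carrying Tg(fli1a:egfp), a transgene in which regulatory sequence of fli1a drives green fluorescent protein (GFP), were raised for 24 hours after fertilization. Their cells were dissociated, fixed and sorted by fluorescence into a GFP-positive (GFP+) fraction, which the labels call endothelial cells, and a GFP-negative (GFP-) fraction, which they call non-endothelial cells. Each fraction was sequenced as 2 libraries of total RNA, so that 4 libraries were made, and all embryos of both fractions carried the transgene. RNA was recovered from the fixed cells by the MARIS protocol, and libraries were made with the TotalScript kit. The fli1a gene is known to be active also in blood progenitors and in cranial neural crest derivatives, so that the sort need not hold endothelium alone. The values are FPKM (fragments per kilobase of transcript, scaled to the number of mapped fragments), 1 per gene and fraction, which were taken as the authors' estimate over the libraries of a fraction. They have no standard deviation, the depth is unknown, and the labels name no clutch or animal for a library, so that p-values may measure technical spread alone.

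Semaphorins are secreted or membrane-bound proteins that steer axons and migrating cells, mostly by repulsion. Plexins are their signalling receptors and carry an intracellular domain that switches off small GTPases of the Rap family. Class 3 semaphorins are secreted and usually need a neuropilin as the binding subunit beside a plexin, and neuropilins also bind vascular endothelial growth factors (VEGF). In the trunk of zebrafish and mouse embryos, endothelial cells read semaphorins from the somites through plexin D1, which keeps sprouting intersegmental vessels between the somites.

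Markers of several cell types were larger in the GFP+ fraction; in each pair of values below, the GFP+ value comes first unless stated. All 8 endothelial markers had the larger value there, from 16.8 to 232 FPKM against 0.120 to 7.5 FPKM, and fli1a itself, on which the sort rests, had 187 against 4.71 FPKM. All 5 erythroid markers, all 6 myeloid rows and all 5 markers of cranial neural crest and arch mesenchyme also had the larger value there. Their summed FPKM was 69976 against 836 for the erythroid list, 206 against 2.15 for the myeloid list and 352 against 112 for the cranial list. All 6 neural, 5 skeletal muscle and 4 epidermal markers were larger in the GFP- fraction, with sums of 148 against 1342, 319 against 1765 and 162 against 1101 FPKM. The differences of tie1, esama, prrx1a, myod1, tubb5, spi1b and coro1a missed the threshold given below, and the rows of the myeloid gene lcp1 had no test. In sorted bulk samples such as these, fewer cells of a type and less RNA per cell cannot be told apart.

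Neuropilin genes nrp1b and nrp2b and the plexin gene plxnc1 were higher in GFP+ cells, no receptor was called lower, and every class A plexin row had the larger value in GFP- cells without passing or without a test. Among the semaphorins, sema3e and sema3fb were higher and sema3gb and sema6dl lower in GFP+ cells. A gene was called when the q-value in the authors' deposited table, from the Cuffdiff program, was under 0.05. Of the 43 members, 14 were tested, and 29 were set aside by Cuffdiff for too few alignments. Of the tested members, 5 were higher, 2 were lower and 7 missed the threshold. Over all 7299 tested genes, 14.3% were called, 7.18% higher and 7.15% lower. At a q under 0.01, where 8.63% of all tested genes were called, 2 members remained, nrp1b higher and sema3gb lower.

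**Figure D1:**
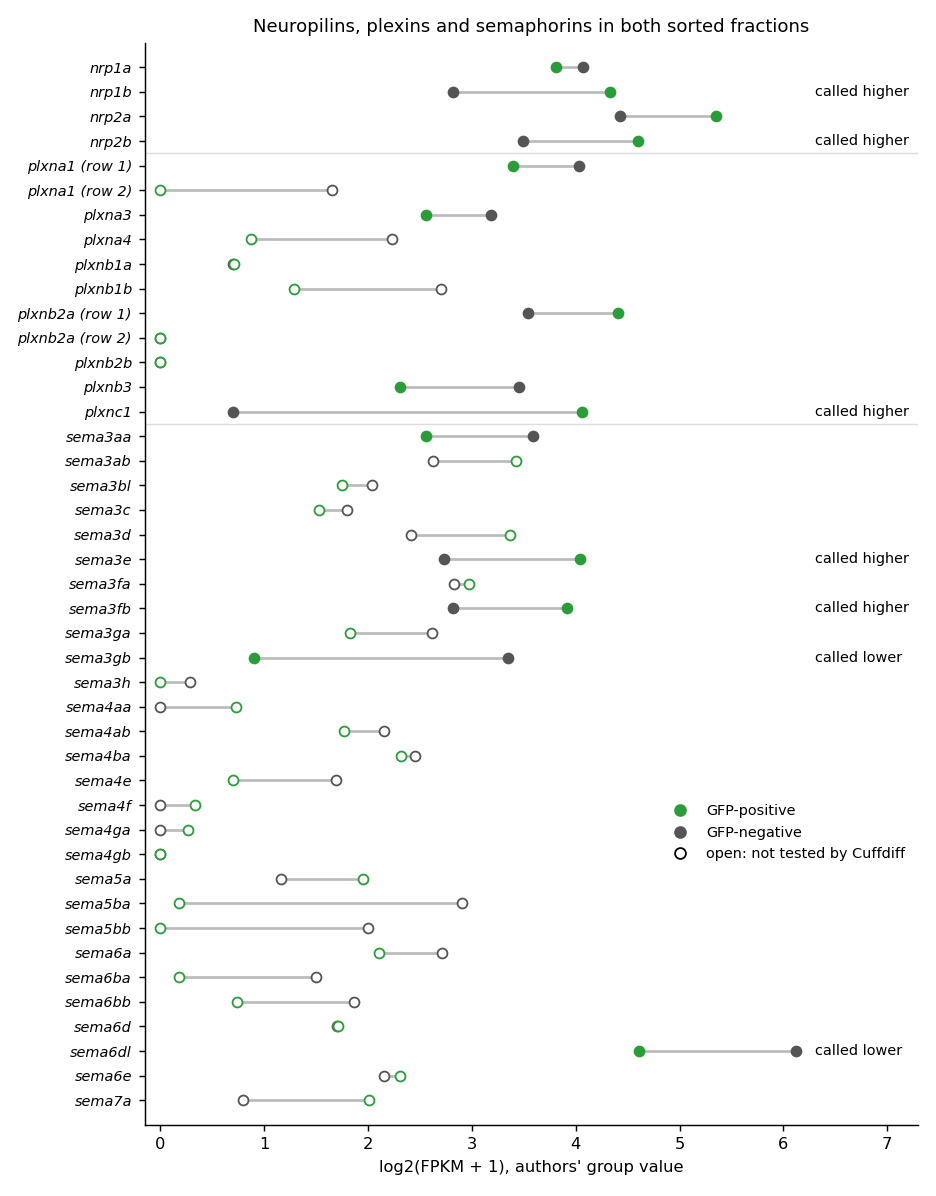
Level of each of the 43 members in GFP+ (green) and GFP- (grey) cells as log2(FPKM + 1); filled points were tested by Cuffdiff, open points were not, and members with a q under 0.05 carry a label. The called members are 5 higher and 2 lower in GFP+ cells, and most of the 29 untested members lie at low levels.

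Summed by class, the neuropilins stood above plexins A, B and C, each taken alone, in both fractions, at 95.2 FPKM in GFP+ and 52.7 FPKM in GFP- cells over 4 genes. The neuropilin 1 gene nrp1b (ENSDARG00000027290; Zv9 build, chromosome 2, 43570358 to 43638082) had 19.2 FPKM in GFP+ and 6.06 FPKM in GFP- cells. This was a 3.16-fold difference with q = 0.00246 in the authors' deposited table. Its duplicate nrp1a (chromosome 24, 1172121 to 1331189) had 13.0 against 15.8 FPKM, with q = 0.771 in the authors' deposited table.

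Neuropilin 2 is known in mammals as a receptor for semaphorin 3F and VEGF-C. Its zebrafish gene nrp2b (ENSDARG00000038446; chromosome 9, 14643751 to 14781066) had 23.2 FPKM in GFP+ and 10.2 FPKM in GFP- cells, a 2.26-fold difference with q = 0.0345 in the authors' deposited table. The gene nrp2a (chromosome 1, 4495200 to 4565764) had the largest GFP+ value of all members, 39.9 FPKM, against 20.6 FPKM. Its 1.94-fold difference did not pass, with q = 0.118 in the authors' deposited table. Only nrp1a among the 4 neuropilins therefore had the smaller value in GFP+ cells. Both called neuropilins were the b copies, but the folds of nrp2a and nrp2b were close, and copies were not tested against each other.

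The widest gap among tested receptors belonged to plxnc1 (ENSDARG00000015278; chromosome 4, 17350832 to 17384995), whose mammalian counterpart binds semaphorin 7A and is found on leukocytes. It had 15.7 FPKM in GFP+ and 0.621 FPKM in GFP- cells. The fold was 25.2 and the q in the authors' deposited table was 0.0315. On the log2(FPKM + 1) scale, which understates changes of low genes, the difference was 3.36. All myeloid rows lay on the same side: the neutrophil gene mpx had 63.6 against 1.11 FPKM, and the macrophage gene mpeg1 had 21.7 FPKM against a listed 0 in GFP- cells, where 3 of the 6 myeloid rows were at 0. The myeloid genes spi1b and coro1a did not pass, with q = 0.115 and q = 0.557 in the authors' deposited table. Endothelial, erythroid and cranial mesenchyme markers also had the larger value in GFP+ cells. The part of any of these cell types in the plxnc1 difference was not tested. The ligand gene sema7a had 3.03 against 0.734 FPKM and was not tested by Cuffdiff, so both partners had the larger value in GFP+ cells.

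Class A plexins signal for class 3 semaphorins together with neuropilins, and for class 6 semaphorins directly. All 4 of their rows had the larger value in GFP- cells, with sums of 15.3 FPKM in GFP+ and 29.2 FPKM in GFP- cells. The gene plxna1 on chromosome 6 had 9.56 FPKM in GFP+ and 15.3 FPKM in GFP- cells, with q = 0.375 in the authors' deposited table. The gene plxna3, required in zebrafish for motor axon guidance, had 4.91 against 8.10 FPKM and q = 0.275 in the authors' deposited table. Neither passed. The gene plxna4 had 0.833 against 3.69 FPKM, and a second row named plxna1, on an unplaced scaffold, had 2.14 FPKM in GFP- cells and was listed at 0 in GFP+ cells. These last rows had no test.

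Class B plexins, which in mammals bind class 4 and 5 semaphorins, went both ways without a call. The gene plxnb2a had 20.3 FPKM in GFP+ and 10.6 FPKM in GFP- cells, a 1.91-fold difference with q = 0.131 in the authors' deposited table. The gene plxnb3, whose mammalian counterpart is a receptor for semaphorin 5A, had 3.95 against 9.97 FPKM, with q = 0.203 in the authors' deposited table. The 6 rows of the class among the members summed to 26.3 and 26.8 FPKM, without the rows under other names. Among the untested rows, plxnb1b had 1.45 against 5.52 FPKM and plxnb1a 0.637 against 0.629 FPKM. A second plxnb2a row in the same locus and the row named plxnb2b were listed at 0 in both fractions.

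Values for the endothelial semaphorin receptor gene plxnd1 come from other rows, since none bears the name in the zebrafish spelling. The row named PLXND1 lies on an unplaced scaffold, from 20 to 854, and was listed at 0 in both fractions. The row that the reference of gene names calls plxnd1, named PLXNB3 (2 of 3) in the table (chromosome 8, 56156057 to 56170545), had 0.571 FPKM in GFP+ cells and was listed at 0 in GFP- cells. Neither row was tested, and each may cover only a fragment of the gene, so that these values do not show whether it was expressed. Pairs with plxnd1 were not analysed here.

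**Figure D2:**
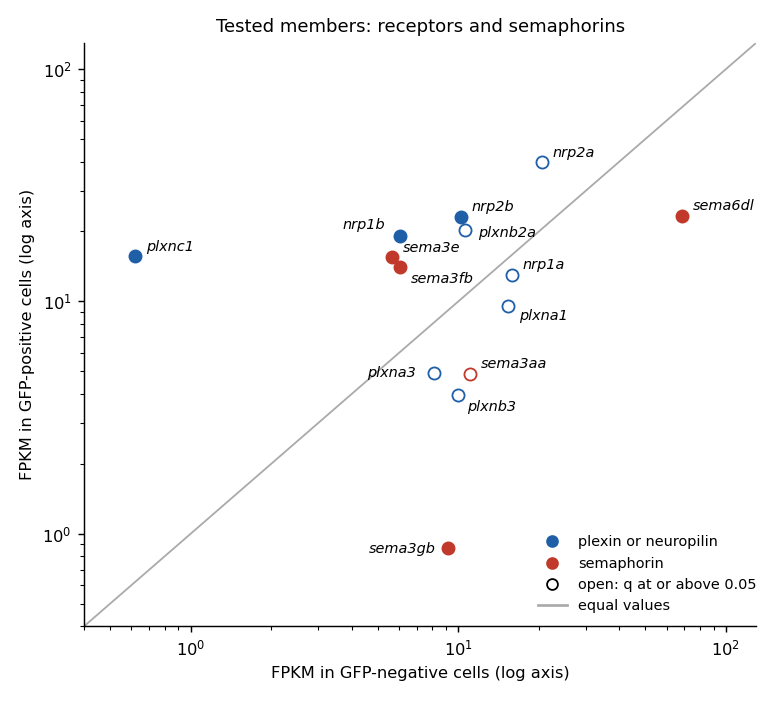
FPKM in GFP+ against GFP- cells, both on log axes, for the 14 tested members, with receptors in blue and semaphorins in red; filled points have a q under 0.05 and the line marks equal values. Called receptors lie above the line, at 15.7 to 23.2 FPKM in GFP+ cells, while called semaphorins lie on both sides.

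Class 3 semaphorins were not confined to the GFP- fraction. Summed over 11 genes they came to 68.1 FPKM in GFP+ and 58.5 FPKM in GFP- cells. Of the 4 tested, 2 were higher, 1 was lower and 1 missed the threshold. The gene sema3e (ENSDARG00000036571; chromosome 18, 8947553 to 9033165), whose mouse counterpart binds plexin D1 without a neuropilin, had 15.5 FPKM in GFP+ and 5.63 FPKM in GFP- cells. This was a 2.75-fold difference with q = 0.0213 in the authors' deposited table. The gene sema3fb (ENSDARG00000055373; chromosome 11, 36289340 to 36410500), of the semaphorin 3F type that binds neuropilin 2, had 14.1 against 6.08 FPKM. Its fold was 2.32 and its q in the authors' deposited table was 0.0374. Both ligand genes thus had over 2 times the level in GFP+ cells. Markers of endothelial, erythroid, myeloid and cranial mesenchyme cells also had the larger value in GFP+ cells. Examples are cdh5 with 87.3 against 0.567 FPKM and prrx1b with 46.3 against 6.86 FPKM. The part of any of these cell types in the sema3e and sema3fb differences was not tested.

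The largest decrease among tested members was that of sema3gb (ENSDARG00000013607; chromosome 8, 24374916 to 24410883), one of the zebrafish genes named after semaphorin 3G, which in mouse is made by endothelial cells. It had 0.868 FPKM in GFP+ and 9.17 FPKM in GFP- cells, a 10.6-fold difference with q = 0.00246 in the authors' deposited table. Its duplicate sema3ga, on the same chromosome, had 2.55 against 5.15 FPKM and was not tested. The gene sema3aa, of the semaphorin 3A type known for collapsing axon growth cones, had 4.88 against 11.0 FPKM. It did not pass, with q = 0.0763 in the authors' deposited table. Neural, skeletal muscle and epidermal markers also had the larger value in GFP- cells, such as elavl3 with 10.1 against 386 FPKM and krt4 with 135 against 872 FPKM. The neural marker tubb5 differed little, at 111 against 132 FPKM. The part of any of these cell types in the sema3gb difference was not tested.

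The other class 3 genes had no test. Of these, sema3d, which guides axons and neural crest cells in zebrafish, had 9.35 against 4.35 FPKM and sema3ab had 9.75 against 5.18 FPKM. The gene sema3fa had 6.87 against 6.11 FPKM, sema3bl 2.37 against 3.11 FPKM and sema3c 1.89 against 2.49 FPKM. The row sema3bl is SEMA3G in the reference of gene names. The gene sema3h had 0.224 FPKM in GFP- cells and was listed at 0 in GFP+ cells. The values of sema3d and sema3ab were 2.15 and 1.88 times as large in GFP+ as in GFP- cells.

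Membrane-bound semaphorins of classes 4 to 7 were mostly low, and 1 of their 17 genes was tested. That gene, sema6dl (ENSDARG00000011533; chromosome 18, 38652498 to 38694169), had 23.4 FPKM in GFP+ and 68.8 FPKM in GFP- cells. It was lower by 2.94-fold, with q = 0.0395 in the authors' deposited table. It had the largest GFP- value of all members and the second largest GFP+ value, after nrp2a. It shares its Cuffdiff locus with the uncharacterised si:ch211-278n20.8, which had 3.76 against 9.99 FPKM, so that reads may be divided between them. In the reference of gene names sema6dl is SEMA6D, a gene whose chick and mouse counterparts act through plexin A1, and the row named sema6d is sema6ca.

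The remaining class 6 genes were low in both fractions. The gene sema6a, whose mouse counterpart binds class A plexins, had 3.30 FPKM in GFP+ and 5.55 FPKM in GFP- cells. The genes sema6ba and sema6bb had 0.137 against 1.82 FPKM and 0.665 against 2.64 FPKM, while sema6d and sema6e stood at 2.27 against 2.26 FPKM and 3.95 against 3.44 FPKM. Class 5 semaphorins, which carry thrombospondin-type repeats, differed among themselves. The gene sema5ba had 0.132 against 6.50 FPKM and sema5bb was listed at 0 against 3.0 FPKM, whereas sema5a had 2.87 against 1.25 FPKM. None of these 8 genes was tested, so the 49.2-fold ratio of sema5ba has no p-value behind it.

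Class 4 semaphorins, several of which act on immune cells and neurons in mammals, summed to 8.16 FPKM in GFP+ and 10.2 FPKM in GFP- cells over 7 rows. The highest were sema4ba at 3.99 against 4.48 FPKM and sema4ab at 2.42 against 3.47 FPKM. The gene sema4e had 0.621 against 2.24 FPKM and shares its locus with stap2a, at 2.66 against 8.06 FPKM. The rows of sema4aa, sema4f and sema4ga had 0.661, 0.263 and 0.207 FPKM in GFP+ cells and were listed at 0 in GFP- cells, and sema4gb was listed at 0 in both. None of these 7 rows reached 5 FPKM in either fraction.

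**Figure D3:**
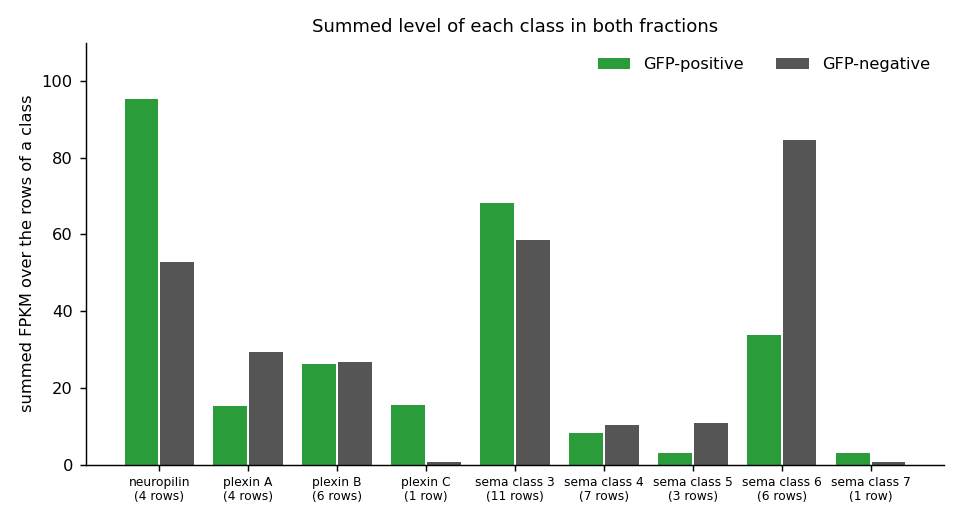
Summed FPKM of each receptor and ligand class in GFP+ (green) and GFP- (grey) cells, with the number of rows in each class below its name; the bars are authors' group values added up and have no error. Neuropilins stand at 95.2 against 52.7 FPKM and class 6 semaphorins at 33.7 against 84.5 FPKM, the latter mostly sema6dl.

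Over all rows, the 15 receptors summed to 152 FPKM in GFP+ and 109 FPKM in GFP- cells, and the 28 semaphorins to 116 against 165 FPKM. The 11 plexin rows among the members were nearly level, at 57.3 against 56.6 FPKM. Plexin rows under other names are not in this sum, and most of them had the larger value in GFP- cells. Most of the larger receptor sum in GFP+ cells was therefore that of the neuropilins, at 95.2 against 52.7 FPKM. Without sema6dl, the semaphorins sum to 92.6 against 95.9 FPKM, so that most of the larger sum in GFP- cells was that of this gene. Among tested receptors 3 of 9 were called, all higher, and among tested semaphorins 4 of 5 were called, with 2 in each direction, where 14.3% of all tested genes were called. The median of log2((GFP+ FPKM + 1)/(GFP- FPKM + 1)) was 0.87 over the tested receptors and -1.03 over the tested semaphorins, against 0.05 over all tested genes. These medians cover only members with enough alignments for a test. Over all rows of at least 1 FPKM in either fraction, tested or not, the order turned round, with a median of -0.44 for receptors and -0.29 for semaphorins. The difference between the roles was not tested.

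Duplicate genes did not always have the larger value in the same fraction. Of 11 pairs that share a name up to a final a or b, 9 had values for both copies, of which 4 had their larger values in opposite fractions and 5 in the same fraction. Of the 4 opposite pairs, 2 rest on a copy under 1 FPKM, plxnb1a at 0.637 against 0.629 FPKM and sema4aa at 0.661 FPKM against a listed 0. The neuropilin 1 copies exchanged rank: nrp1a was 2.62 times nrp1b in GFP- cells, and nrp1b was 1.47 times nrp1a in GFP+ cells. The semaphorin 3A copies did so too, with sema3aa at 2.13 times sema3ab in GFP- cells and sema3ab at 2.0 times sema3aa in GFP+ cells. The neuropilin 2 copies kept their order, with nrp2a at 2.01 times nrp2b in GFP- and 1.72 times in GFP+ cells. The semaphorin 3F copies were level in GFP- cells, at a ratio of 1.01, while sema3fb was 2.05 times sema3fa in GFP+ cells. These ratios compare levels per transcript length within a fraction and carry no test.

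**Figure D4:**
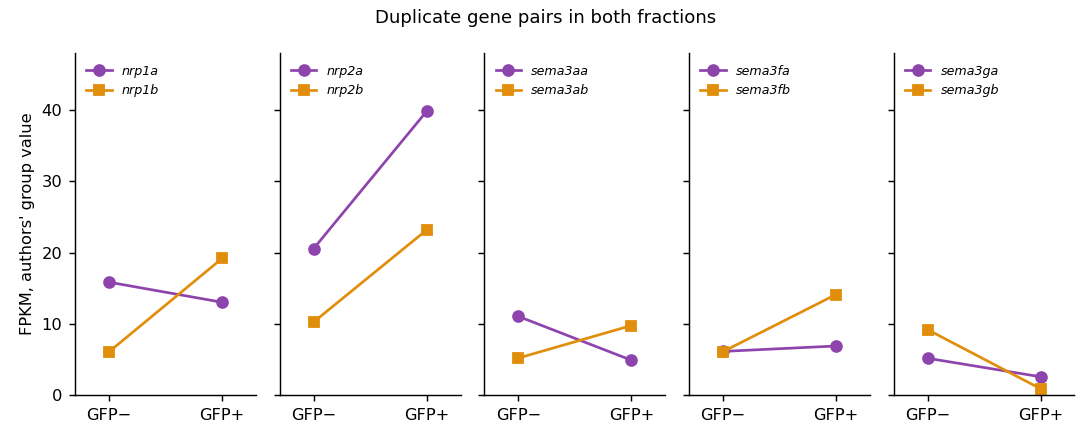
FPKM of 5 duplicate gene pairs in GFP- (left) and GFP+ (right) cells, with the a copy as purple circles and the b copy as orange squares; each point is the authors' group value. The lines of nrp1a and nrp1b and of sema3aa and sema3ab cross, while nrp2a stays above nrp2b in both fractions.

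Known partners were set side by side from textbook pairs. The neuropilin 2 receptor nrp2a (39.9 FPKM) and its ligand gene sema3fb (14.1 FPKM) both had the larger value in GFP+ cells, as did nrp2b (23.2 FPKM) and sema3d (9.35 FPKM). The other semaphorin 3F gene, sema3fa, was nearly level, at 6.87 against 6.11 FPKM. Of these genes, nrp2a was not called, and sema3d and sema3fa had no test. The pair of sema3d and nrp1a was divided, since nrp1a had the larger value in GFP- cells. For semaphorin 3A and neuropilin 1, the copies went both ways. The a copies sema3aa (4.88 against 11.0 FPKM) and nrp1a (13.0 against 15.8 FPKM) had the larger value in GFP- cells. The b copies sema3ab (9.75 against 5.18 FPKM) and nrp1b (19.2 against 6.06 FPKM) had it in GFP+ cells. The b copies were matched by name alone and were not among the textbook pairs. The mixed pairs, sema3aa with nrp1b and sema3ab with nrp1a, were divided. Only nrp1b among these copies was called, and sema3ab had no test. For semaphorin 6D and plexin A1, sema6dl had 68.8 FPKM and plxna1 15.3 FPKM within GFP- cells, both above their GFP+ values, but plxna1 was not called. The row named sema6d, which the reference of gene names calls sema6ca, was level, at 2.27 against 2.26 FPKM. The genes sema6a and plxna4 both had the larger value in GFP- cells, and neither was tested. The pair sema5a and plxnb3 was divided, with the ligand at 2.87 FPKM in GFP+ and the receptor at 9.97 FPKM in GFP- cells. Each fraction holds several cell types, so these values do not place both partners in one cell.

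The members are spread over 16 chromosomes and 1 unplaced scaffold. The genes sema3d, sema3ab and sema3e follow one another on chromosome 18 within 397 kb, from 8636380 to 9033165, with no other row of the table wholly inside. All 3 had the larger value in GFP+ cells, at 9.35, 9.75 and 15.5 FPKM, and the last alone was tested. The other chromosome 18 members, sema4ba and sema6dl, had the larger value in GFP- cells, and of all rows on that chromosome whose fractions differ, 48.5% were larger in GFP+ cells. Chromosome 8 holds 8 members (sema3bl, sema3ga, sema3gb, sema3h, sema6a, sema6bb, plxna3 and plxnb3), and all 8 had the larger value in GFP- cells, which was noticed after the values were seen. Of all rows on chromosome 8 whose fractions differ, 53.4% were larger in GFP- cells. Of the 8 members, 3 were tested and 1, sema3gb, was called. That of sema3h rests on 0.224 FPKM in GFP- cells against a listed 0. Rows of the same families under other names on chromosome 8 went both ways.

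Genes that work beside these receptors were counted from lists chosen by function. Of the co-receptors, 14 rows were found and 6 tested, with 2 called higher, or 33.3% of those tested against 7.18% over all tested genes, and none lower. These were the VEGF receptor genes kdrl, at 52.4 against 2.13 FPKM with q = 0.000958, and flt4, at 44.3 against 0.898 FPKM with q = 0.00246 in the authors' deposited table. The third receptor, flt1, was at 30.3 against 0.278 FPKM and missed the threshold, with q = 0.0636 in the authors' deposited table, and kdr had 2.23 FPKM, was listed at 0 in GFP- cells and had no test. The called VEGF receptors thus differed by 24.6-fold and 49.3-fold, whereas nrp1b and nrp2b differed by 3.16-fold and 2.26-fold. The gene kdrl is also on the endothelial marker list, so its call adds nothing to that list. The 4 other tested co-receptors, flt1 among them, were not called. The share of co-receptors called thus rests on VEGF receptor genes alone. All 6 tested rows had the larger value in GFP+ cells. Over all 14 rows, 8 had the larger value in GFP+ and 5 in GFP- cells. Whether the share is a trait of co-receptors as a class was not tested. Neuropilin RNA was present in both fractions, at no less than 6.06 FPKM.

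Of the 4 VEGF ligand rows, 2 were tested and 1 was called higher, where 7.18% of all tested genes were called higher. It was vegfc, the ligand of flt4, at 14.6 against 2.22 FPKM with q = 0.0204 in the authors' deposited table. The gene vegfab had 3.43 against 9.47 FPKM and q = 0.121 in the authors' deposited table, and vegfaa, at 7.31 against 9.61 FPKM, had no test. The row named figf, a name of vegfd, had 2.14 against 1.60 FPKM and no test either. The ligand vegfc and its receptor gene flt4 thus both had the larger value in GFP+ cells, which is a statement about 1 ligand gene.

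Of the cytoplasmic effectors, 51 rows were found and 29 tested, with 1 called higher, 3 lower and 25 not passing, a share of 13.8% against 14.3% over all tested genes. The one called higher was rap1b, a GTPase of the family that plexins switch off, at 99.6 against 36.8 FPKM with q = 0.00594 in the authors' deposited table. Called lower were rnd1l, named after a GTPase that binds plexins (9.32 against 37.1 FPKM), dpysl5a of the collapsin response mediator family (2.42 against 35.8 FPKM) and the Src-family kinase gene fyna (1.71 against 11.8 FPKM). Their q-values in the authors' deposited table were 0.000958, 0.000958 and 0.0116. The other tested Rap1 and Rnd genes of the list were not called, and their larger values lay in either fraction. The share of effectors called was near that of all genes.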

How the data were processed

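The Zv9 build, TopHat2 2.0.9 and Cuffdiff 2.1.1 are named in the submitters' processing notes, and their settings are not given in the sources used here. Per the file headers, the table gives 1 FPKM value per gene and fraction, with the authors' log2 ratio, test statistic (a score), p-value and q-value beside it. The sign of that ratio was turned, because it divides the GFP-negative by the GFP-positive value. The q-value equals a Benjamini-Hochberg adjustment over the 7299 tested genes. From the deposited FPKM, folds, sums and log2((FPKM + 1) ratios) were computed with Python 3.11.15 and pandas 2.3.3; no test was run beyond the authors' own, since libraries have no separate values here. The code was tested on simulated data. Whether locus starts count from 0 or 1 is not given. Reads shared between duplicate or overlapping genes may be divided arbitrarily. Members, lists and pairs were chosen with earlier results of these data known. Every member could be named, with called genes of the pathway lists, VEGF genes and markers. Gene names are those of the table; 37 members have a name in the reference, of which 13 are spelled the same.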

Additional observations from a re-analysis of the deposited data

How the results depend on the processing

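At a q under 0.01, members called higher went from 5 to 1 and members called lower from 2 to 1; receptors higher went from 3 to 1, semaphorins higher from 2 to 0, semaphorins lower from 2 to 1 and VEGF ligands higher from 1 to 0. With genes alone in their locus, 1 member, and so 1 semaphorin, was called lower, because sema6dl shares its locus. Over rows of at least 1 FPKM in either fraction, tested or not, the median log2 ratio turned to -0.29 from 0.30 for all members and to -0.44 from 0.87 for receptors, and was -0.29 in place of -1.03 for semaphorins; untested rows enter there. That of all genes went to -0.041 from 0.047. Scaling both fractions to the same summed FPKM, chosen after seeing the data, shifts each ratio without a pseudocount by -0.27 on the log2 scale (-0.10 without globins). With the pseudocount of 1 the shift is smaller for low genes, and sema3gb went from -2.45 to -2.56. The scaling moved the median of all tested genes to -0.20 (-0.046 without globins), and turned no tested member. Pseudocounts of 0.1 and 0.01 moved 2 tested members, each with a value under 1 FPKM in a fraction. The log2 ratio of plxnc1 went from 3.36 to 4.45 and 4.63, and that of sema3gb from -2.45 to -3.26 and -3.39. A minimum log2 ratio of 1 and adjustment again over genes of at least 1 FPKM changed no count of called members. Minimum FPKM of 1 or 5, names that occur once and other spellings of the names could not change one. Every tested member had at least 8.10 FPKM in a fraction, no called member shares its name, and no row under another spelling was tested. A median was taken as moved beyond 1.5 times, since no replicate spread is at hand. No paired analysis was possible because the table holds no value of a single library; leaving out a library was not possible for the same reason.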

Other observations

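Another 15 rows belong to the same families by a capitalised name (13 rows) or by the reference of gene names alone (2 rows). None was tested by Cuffdiff. Of these, 9 had the larger value in GFP- cells, 3 in GFP+ cells, and 3 were listed at 0 in both. The highest in GFP+ cells was SEMA4C, whose mouse product is a ligand of plexin B2, at 6.66 against 3.54 FPKM. The row PLXNA1 (2 of 3) on chromosome 23 had 5.57 against 6.01 FPKM. The row PLXNB3 (3 of 3) on chromosome 6 had 5.97 FPKM in GFP- cells and was listed at 0 in GFP+ cells. The row that the reference calls PLXNA2, si:dkey-164k14.1 in the table, had 1.34 against 5.97 FPKM, and the one it calls SEMA3B, si:ch211-106g4.2, had 1.07 against 5.08 FPKM. The row named SEMA4B (2 of 2) had 2.90 against 5.16 FPKM. A row named SEMA7A on an unplaced scaffold had 2.84 FPKM in GFP+ cells and was listed at 0 in GFP- cells, the same side as the member sema7a. SEMA4D, the ligand of plexin B1 in mammals, had 0.574 FPKM in GFP- cells and was listed at 0 in GFP+ cells.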
